A study of Mus musculus with 6 samples.

Results

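Programmed cell death genes were compared between the injured spinal cord of mice trained on a rotarod, a turning drum that makes a mouse keep its balance, and that of mice without training. The set held 40 genes, taken from the 54532 genes of the count table by gene symbol: 26 of apoptosis, 4 of the p53 response, 7 of pyroptosis and 3 of necroptosis. Of these 39 had enough reads to be tested, and 1, Bik, did not. The study holds 3 libraries of trained and 3 of untrained C57BL/6J mice, all with a spinal cord injury and all placed by the labels at 28 days after training. The sources used here do not give the injury level and severity or the age and sex of the mice, and no uninjured cord was analysed here. The labels do not state whether each library is a separate mouse, so the p-values measure the spread between these libraries, which may be technical.

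Apoptosis is the orderly death of a cell by caspases, proteases that cut their substrates after aspartate. In the mitochondrial route BH3-only proteins free the pore formers Bax and Bak from their BCL-2 relatives, and cytochrome c leaks out to assemble a caspase-activating complex. In the death receptor route, receptors of the TNF family recruit caspase-8. Pyroptosis and necroptosis end instead with pores in the plasma membrane, opened by gasdermin D or by MLKL, and spill inflammatory content. After spinal cord injury, neurons and oligodendrocytes are known to die by apoptosis, and inflammasome genes are known to be expressed mainly in microglia and infiltrating myeloid cells.

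No cell death gene passed the test between trained and untrained cord. By the quasi-likelihood test of edgeR, with p-values adjusted by Benjamini-Hochberg over all 16909 genes tested, 0 of 39 members had an adjusted p under 0.05, and the smallest was 0.209. Of all genes tested 0.0591% passed. DESeq2 and limma-voom also called 0 members. At an unadjusted edgeR p under 0.05 stood 5 of 39 members (12.8%), against 10.0% of all genes tested: Cflar, Xiap, Birc3 and Mcl1 were lower and Bbc3 was higher in trained cord. The 3 libraries of each group did not overlap in 5 of 39 members (12.8%), against 16.8% of all genes tested. These were Bbc3 and Fadd, higher in trained cord, and Cflar, Xiap and Pmaip1, lower. Both shares lie near those of all genes.

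The log2 fold change, trained over untrained, was below 0 in 29 and above 0 in 10 of the 39 members, with a median of -0.10. The median of all genes tested was -0.0080, and 48.0% of them were above 0. By group the medians were -0.07 for apoptosis, -0.02 for p53, -0.30 for pyroptosis and -0.65 for necroptosis. The 3 trained libraries did not stand together. Trained replicate 1 was the lowest of the 6 libraries in 14 and trained replicate 2 in 9 of the 39 members, while trained replicate 3 was the lowest in 3 and the highest in 9. Untrained replicate 1 was the highest in 14.

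The count of 5 rested on single libraries. It was 3 without trained replicate 1, 2 without untrained replicate 1 and 12 without trained replicate 3. In the last of these fits all 12 members were lower in trained cord (30.8% of the 39, against 14.6% of all genes): Mcl1, Xiap, Birc3, Fas, Tnfrsf1a, Cflar, Nlrp3, Aim2, Casp1, Casp4, Gsdmd and Mlkl. There 3 members passed over all genes in edgeR, Casp4 (adjusted p = 0.0242), Mcl1 (0.0358) and Cflar (0.0481), when 1.29% of all genes did. In the other 5 fits that left out a library, 0 members passed. Trained replicate 3 carries the same label as the other trained libraries, and nothing in the labels sets it apart. In log2 CPM of the genes tested it correlated at 0.9859 with trained replicate 2 and at 0.9848 to 0.9879 with the untrained libraries. For trained replicate 1 these values were 0.9856 and 0.9815 to 0.984, and trained replicates 1 and 3 were the lowest pair, at 0.9795.

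**Figure D1:**
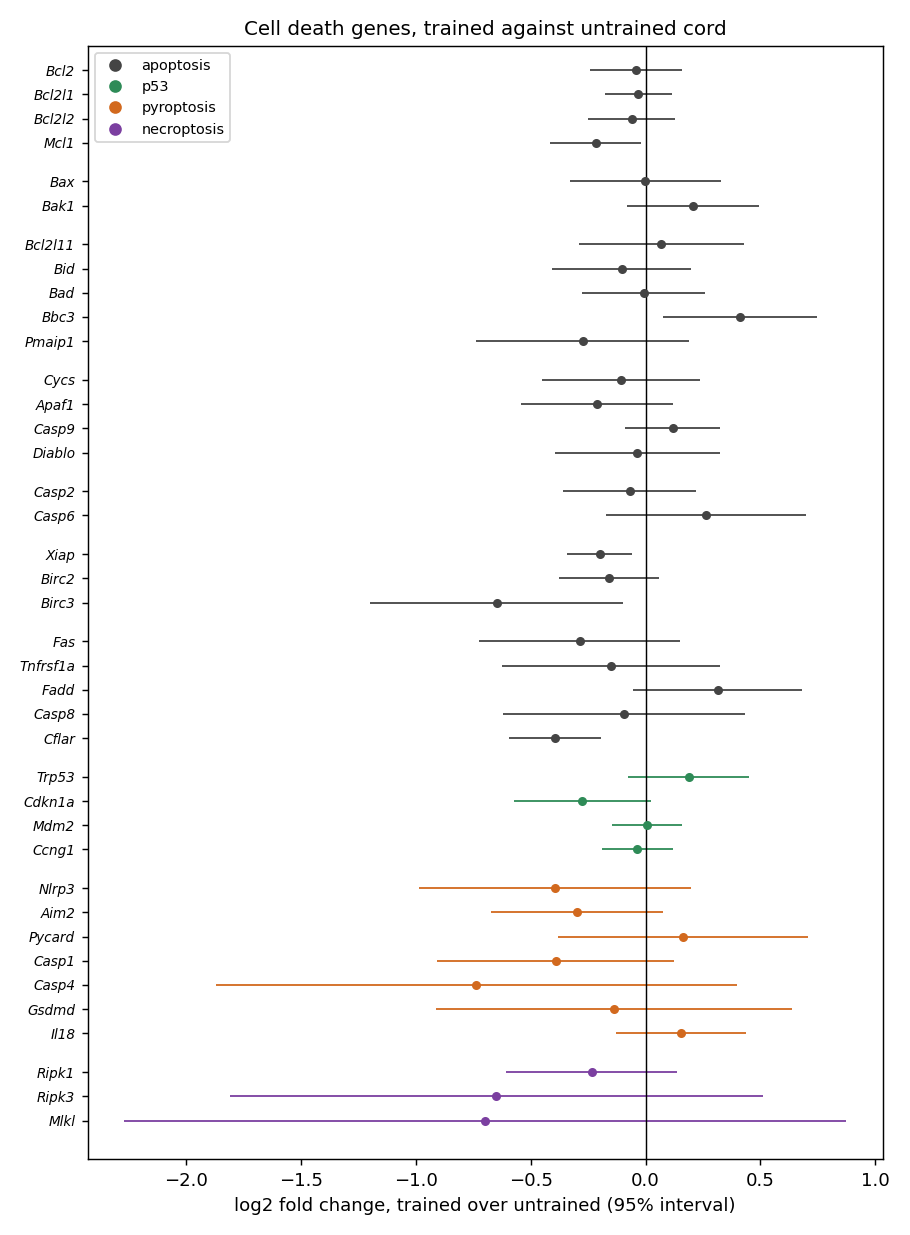
Log2 fold change, trained over untrained, of the 39 tested members with its 95% interval from the edgeR fit, in blocks by role from the BCL-2 relatives at the top to the necroptosis genes at the bottom. The interval excludes 0 for Mcl1, Bbc3, Xiap, Birc3 and Cflar, and none of these passed after adjustment over all genes.

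Library depth ran from 15814104 to 26092014 counts, and trained replicate 1 was the deepest. A count of 3, used as the floor for an undetected gene, corresponds to 0.116 to 0.192 CPM (read counts scaled to a common library size with TMM factors). The marker genes of spinal cord were present in every library, with summed levels of 31540 to 40150 CPM for 5 oligodendrocyte genes, 6516 to 8473 CPM for 5 astrocyte genes and 3747 to 4567 CPM for 5 neuronal genes. Of the other cells a dissected cord can hold, the 5 Schwann cell markers summed to 953 CPM in trained replicate 1 and to 1395 to 2075 CPM in the other 5 libraries. The 6 neutrophil markers summed to 30.6, 64.3 and 55.6 CPM in trained replicates 1, 2 and 3 and to 14.6 to 22.1 CPM in untrained cord. The part of these cells in the results was not tested. In whole cord, fewer cells of a type and less RNA per cell cannot be told apart.

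Per kilobase of gene model, the scale on which genes can be compared with each other, the cell death genes spanned a wide range. Mcl1, a short-lived BCL-2 relative that keeps Bax and Bak in check, was the most abundant at 35.98 CPM per kb over all 6 libraries, followed by Cycs (cytochrome c) at 29.5, Bcl2l2 (BCL-W) at 27.3 and Bcl2l1 (BCL-XL) at 25.4. Bcl2 itself stood at 3.24 CPM per kb, well below its 3 relatives. Of the genes of lytic death, the pore gene Gsdmd stood at 3.07 CPM per kb, close to Bcl2. The pore gene Mlkl and the kinase gene Ripk3 were low, at 0.414 and 0.396 CPM per kb. Bik, a BH3-only gene, was at 0.118 CPM per kb, from 6, 1 and 2 reads in the trained and 6, 1 and 5 in the untrained libraries. The gene lengths are those of the deposited table, which for 37 of 40 members equal the union of all exons in the GENCODE M21 annotation. A gene with a long rare exon is therefore understated.

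**Figure D2:**
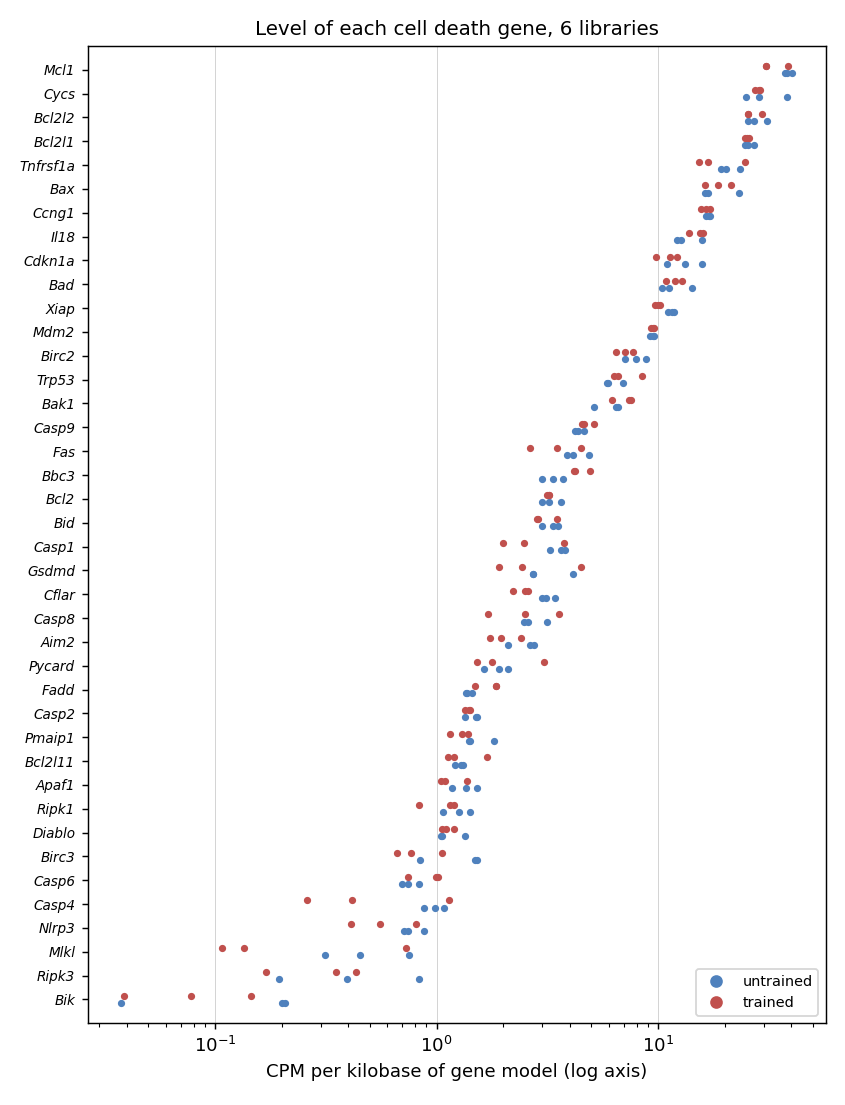
Level of all 40 members in each of the 6 libraries, in CPM per kilobase on a log axis, ordered by the mean of all libraries, with untrained libraries in blue and trained in red. The survival genes Mcl1, Bcl2l2 and Bcl2l1 lie at the top with Cycs, and the necroptosis genes Ripk3 and Mlkl lie at the bottom above Bik.

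The 4 anti-apoptotic BCL-2 genes summed to 88.8, 84.3 and 91.8 CPM per kb in trained replicates 1, 2 and 3 and to 96.4, 96.9 and 93.2 in untrained replicates 1, 2 and 3, so that every trained library lay below every untrained one. Most of that gap was Mcl1. Mcl1 was at 105, 105 and 132 CPM in trained and at 138, 128 and 131 CPM in untrained cord. Both trained replicates 1 and 2 were lower than all 3 untrained libraries, and trained replicate 3 lay among them. The log2 fold change was -0.22 ± 0.09 (SE, n = 3 per group, edgeR adjusted p = 0.462), and -0.32 without trained replicate 3.

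The other 3 relatives differed little. Bcl2 was at 29.3 ± 0.251 CPM in trained, against 30.1 ± 2.97 CPM in untrained cord (mean ± SD, n = 3 per group), with a 95% interval of the log2 difference from -0.24 to 0.16. Bcl2l1, the main survival gene of mature neurons, was at 115 ± 2.42 against 118 ± 5.62 CPM, with an interval from -0.18 to 0.11. Bcl2l2 was at 119 ± 10.3 against 124 ± 12.4 CPM (-0.25 to 0.13). The intervals hold changes of that size as well as none.

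Of the pore formers, Bax had the same mean in both groups, 29.5 ± 4.04 CPM in trained, against 29.5 ± 5.96 CPM in untrained cord, with an interval of -0.33 to 0.33. The library spread of Bax was wide, from 25.6 to 36.4 CPM, and untrained replicate 2 was its highest value. Without that library the log2 fold change of Bax was 0.18. Bak1 was at 16.9 ± 1.77 against 14.6 ± 1.92 CPM (0.21 ± 0.13, edgeR adjusted p = 0.634). The ratio of Bax to Bcl2, both per kb, was 5.78, 5.06 and 6.74 in trained and 4.61, 7.17 and 5.45 in untrained replicates 1, 2 and 3, so the groups overlapped in full.

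Among the BH3-only genes, the triggers of the mitochondrial route, Bbc3 stood apart from the other 4 tested. Bbc3 encodes PUMA, a p53 target that binds every anti-apoptotic relative. It was at 8.98, 8.89 and 10.5 CPM in trained and at 7.10, 7.87 and 6.33 CPM in untrained cord. Every trained library lay above every untrained one, a 1.33-fold difference (log2 fold change 0.41 ± 0.16, 95% interval 0.08 to 0.75, unadjusted p = 0.0202 and adjusted p = 0.405 in edgeR). The log2 fold change lay between 0.34 and 0.49 in the fits that left out each library, all above 0.

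Pmaip1, which encodes NOXA, a partner of MCL1, was at 3.45, 3.03 and 3.66 CPM in trained and at 4.81, 3.73 and 3.71 CPM in untrained cord. The groups did not overlap, but the nearest libraries stood at 3.66 and 3.71 CPM, and its log2 fold change was -0.27 ± 0.21 (edgeR adjusted p = 0.709). Bcl2l11, the BIM gene of growth factor withdrawal, was at 10.7 ± 2.49 against 10.2 ± 0.479 CPM. Bid, which caspase-8 cuts to link both routes, was at 10.9 ± 1.36 against 11.7 ± 0.971 CPM, and Bad, which survival kinases silence, at 23.8 ± 2.03 against 24.0 ± 4.08 CPM. The groups overlapped in each of these 3 genes.

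A ratio chosen after the values were seen, Bbc3 over Mcl1 per kb, was 0.138, 0.137 and 0.128 in trained and 0.0831, 0.0992 and 0.0776 in untrained replicates 1, 2 and 3. It is given as a description with no test.

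Downstream of the mitochondria, Cycs was at 96.5 ± 2.88 CPM in trained, against 104 ± 23.4 CPM in untrained cord. Its untrained spread came from replicate 2, at 130.1 CPM against 84.8 and 97.2 in replicates 1 and 3, and without that library the log2 fold change turned from -0.11 to 0.09. Apaf1, the scaffold that cytochrome c assembles, was at 10.6 ± 1.602 against 12.2 ± 1.57 CPM. The initiator Casp9 was at 24.8 ± 1.58 against 22.9 ± 1.07 CPM. Diablo, an IAP antagonist released with cytochrome c, was at 6.91 ± 0.412 against 7.10 ± 1.03 CPM. Of the other caspases, Casp2, a stress-linked initiator, was at 9.78 ± 0.250 against 10.3 ± 0.708 CPM. Casp6, an executioner linked to axon degeneration, was at 5.12 ± 0.846 against 4.23 ± 0.375 CPM (log2 fold change 0.26 ± 0.20). The groups overlapped in all 6 genes.

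The 3 inhibitor of apoptosis genes, whose proteins block caspases or tag cell death kinases with ubiquitin, were all lower in mean in trained cord, and 0 of 3 passed after adjustment. Their summed level was 17.2, 18.7 and 17.8 CPM per kb in trained and 20.3, 21 and 20.7 in untrained replicates 1, 2 and 3, with no overlap. Xiap, the direct caspase inhibitor, was at 95.1, 96.9 and 91.5 CPM in trained and at 111, 109.9 and 105 CPM in untrained cord. Every trained library of Xiap lay below every untrained one, a difference of 1.15-fold (log2 fold change -0.20 ± 0.07, 95% interval -0.34 to -0.06, unadjusted p = 0.00964 and adjusted p = 0.348 in edgeR). Trained replicate 3, which stood with the untrained libraries for Mcl1, had the lowest Xiap of all 6.

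Birc3 (cIAP2), a ubiquitin ligase of TNF receptor complexes and an NF-kB target, was at 3.33, 3.83 and 5.28 CPM in trained and at 7.65, 7.45 and 4.22 CPM in untrained cord. The groups overlapped through untrained replicate 3 and trained replicate 3, and the log2 fold change was -0.65 ± 0.25 (unadjusted p = 0.0249 and adjusted p = 0.426 in edgeR). It ranged from -0.87 to -0.50 when each library was left out. Its close relative Birc2 (cIAP1) was at 32.5 ± 2.95 against 36.3 ± 3.90 CPM, with a log2 fold change of -0.16 ± 0.10.

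In the death receptor route Cflar had the smallest p of all 39 members. It encodes c-FLIP, a caspase-8 look-alike without protease activity that can hold back caspase-8. Cflar was at 27.9, 31.7 and 32.6 CPM in trained and at 43.6, 39.6 and 37.8 CPM in untrained cord. Every trained library lay below every untrained one, a difference of 1.31-fold (log2 fold change -0.39 ± 0.09, 95% interval -0.59 to -0.20, unadjusted p = 0.000881 and adjusted p = 0.209 in edgeR). The log2 fold change lay between -0.44 and -0.33 under every alternative tried, with adjusted p-values from 0.0122 to 0.565. Cflar passed over all genes in the fit without trained replicate 3 (adjusted p = 0.0481) and in edgeR with no filter on low counts (adjusted p = 0.0122). The fit with no filter called 0.909% of its genes.

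**Figure D3:**
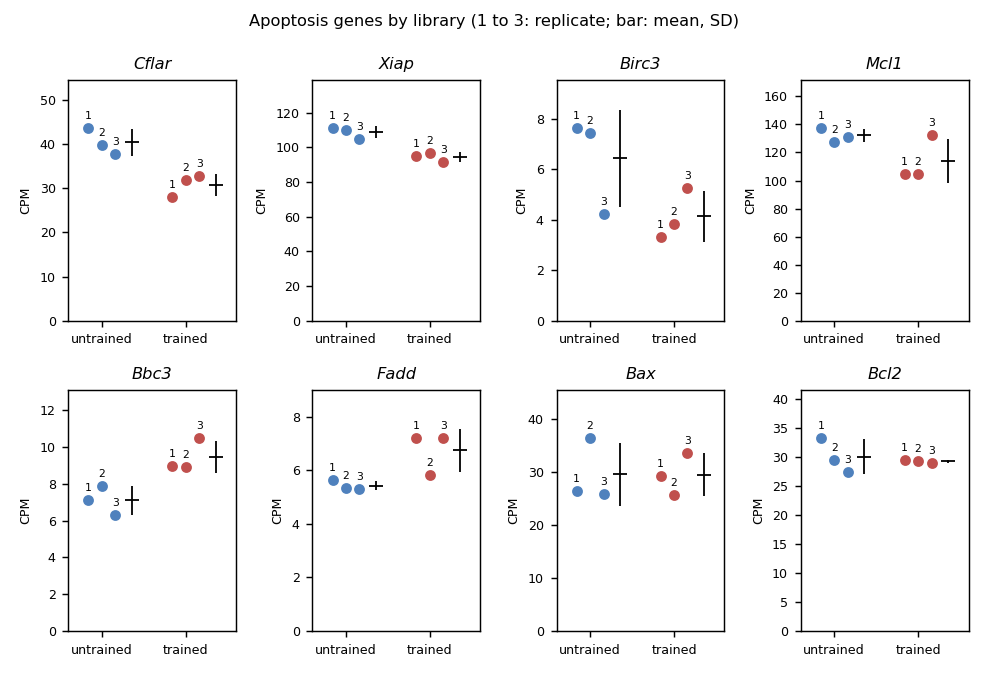
Level of 8 apoptosis genes in each library, in CPM from 0, with the replicate number beside each point and a bar for the mean and SD of 3 libraries. The groups do not overlap in Cflar, Xiap, Bbc3 and Fadd, overlap in Birc3, overlap through trained replicate 3 alone in Mcl1, and overlap with like means in Bax and Bcl2.

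Of the 5 genes of this route 4 had a log2 fold change below 0, and Fadd was above 0. Fadd, the adaptor between receptor and caspase-8, was at 7.20, 5.81 and 7.20 CPM in trained and at 5.63, 5.35 and 5.30 CPM in untrained cord, above in every trained library (log2 fold change 0.31 ± 0.17, unadjusted p = 0.0873 and adjusted p = 0.550 in edgeR). Casp8 was at 4.96, 7.29 and 10.3 CPM in trained and at 9.12, 7.21 and 7.48 CPM in untrained cord. Its trained libraries enclosed all the untrained ones. The log2 fold change of Casp8 was -0.09 ± 0.24, and -0.37 without trained replicate 3. The ratio of Casp8 to Cflar per kb was 0.777, 1.01 and 1.38 in trained and 0.916, 0.796 and 0.867 in untrained replicates 1, 2 and 3, and the groups overlapped.

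Fas, a death receptor of the TNF family, was at 4.76, 6.30 and 8.07 CPM in trained and at 7.43, 8.77 and 6.96 CPM in untrained cord (log2 fold change -0.29 ± 0.20, -0.105 without trained replicate 1 and -0.47 without trained replicate 3). Tnfrsf1a, the TNF receptor that signals both survival and death, was at 39.5, 43.7 and 63.9 CPM in trained and at 60.5, 49.8 and 52.3 CPM in untrained cord (-0.15 ± 0.19). In both receptors trained replicate 1 was the lowest library. For Tnfrsf1a trained replicate 3 was the highest, and its log2 fold change moved to -0.37 without that library.

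The p53 genes showed no shared shift, with 0 of 4 past an unadjusted p of 0.05. Trp53, the transcription factor gene itself, was at 25.7, 26.6 and 34.3 CPM in trained and at 28.1, 24.0 and 23.7 CPM in untrained cord (log2 fold change 0.19 ± 0.12, and 0.07 without trained replicate 3). Cdkn1a, the p21 cell cycle inhibitor gene and a widely used p53 readout, was at 34.8, 43.1 and 40.2 CPM in trained and at 56.3, 47.1 and 39.0 CPM in untrained cord. Its log2 fold change of -0.28 ± 0.13 (edgeR adjusted p = 0.521) was -0.12 without untrained replicate 1, the highest library.

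Mdm2, whose protein degrades p53 and which p53 induces, was among the steadiest members, from 46.7 to 48.7 CPM over all 6 libraries, with a 95% interval of the log2 difference from -0.15 to 0.16. Ccng1 (cyclin G1) was at 57.6 ± 2.88 against 59.0 ± 1.23 CPM, with an interval from -0.19 to 0.12. The p53-inducible death genes listed above did not share a direction either, with log2 fold changes of 0.41 for Bbc3, -0.0014 for Bax, -0.27 for Pmaip1 and -0.29 for Fas.

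The promoters of the p53 genes are shown because several share the same short motif. The log2 fold changes of these genes did not share a direction, and none passed the test over all genes. RefSeq windows of 300 bases, 250 before and 50 after each start site (build GRCm38.p6), were found for 37 of the 40 members. They were searched for the p53 decamer, which is 3 purines, C, 2 bases of A or T, G and 3 pyrimidines and reads the same way on both strands. Of all 32851 windows 8.36% hold it. It lies in at least 1 window of 8 members, among them Cdkn1a, Mdm2, Ccng1, Bax and Trp53. In Cdkn1a 1 of 2 windows holds it, and in Bbc3 0 of 3. The 8 counts genes, which can have more than 1 window, so it does not compare with the share of windows. A match is a description of the letters and shows no binding. In the stretches below, all upstream of the start site, 5′ to 3′ on the gene's strand, the capitals mark the decamer.
Cdkn1a, chr17:29090913-29090952, plus strand: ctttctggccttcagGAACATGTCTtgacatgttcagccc
Mdm2, chr10:117710920-117710959, minus strand: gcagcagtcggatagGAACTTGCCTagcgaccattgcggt
Ccng1, chr11:40755447-40755486, minus strand: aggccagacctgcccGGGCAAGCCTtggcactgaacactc
Bax, chr7:45467075-45467114, minus strand: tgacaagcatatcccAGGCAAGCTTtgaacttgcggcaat
In the matching window of Cdkn1a the first base of the decamer shown lies 51 bases before the start site. Another decamer of that window starts at 73 bases. For the decamers shown in Mdm2, Ccng1 and Bax the distance is 186, 185 and 201 bases. Of these 4 genes, Mdm2, Ccng1 and Bax had log2 fold changes within 0.04 of 0, and Cdkn1a the value of -0.28 given above. Trp53, whose stretch is not printed, had a log2 fold change of 0.19.

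In the pyroptosis genes 0 of 7 passed an unadjusted p of 0.05, and the trained libraries split. The lowest of the 6 libraries was trained replicate 1 in 4 of the 7 genes and trained replicate 2 in 2, and trained replicate 3 was the highest in 4. The mean log2 CPM of the 7 genes, relative to all libraries, was -0.48, -0.33 and 0.39 in trained and 0.30, 0.13 and -0.01 in untrained replicates 1, 2 and 3. The median log2 fold change of -0.30 became -0.55 without trained replicate 3 and -0.19 without trained replicate 1.

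Casp4, the mouse caspase-11 gene, whose protein senses bacterial lipopolysaccharide inside the cell, showed the split most widely. It was at 0.968, 1.54 and 4.22 CPM in trained and at 3.99, 3.67 and 3.26 CPM in untrained cord. Trained replicate 3 was the highest of all libraries, and the other trained libraries were the lowest. The log2 fold change was -0.74 ± 0.49 (edgeR adjusted p = 0.660). It was -1.55 without trained replicate 3 (adjusted p = 0.0242) and -0.34 without trained replicate 1 (adjusted p = 0.843).

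Casp1, the inflammasome caspase that matures IL-1β and IL-18, was at 2.98, 3.71 and 5.65 CPM in trained and at 5.46, 5.71 and 4.86 CPM in untrained cord (log2 fold change -0.39 ± 0.24, -0.19 without trained replicate 1 and -0.67 without trained replicate 3). Gsdmd, the pore protein gene, was at 4.53, 5.81 and 10.6 CPM in trained and at 9.83, 6.49 and 6.45 CPM in untrained cord (-0.14 ± 0.33, and -0.55 without trained replicate 3). Pycard, which encodes the adaptor ASC, was at 5.81, 6.73 and 11.7 CPM in trained and at 7.27, 7.99 and 6.20 CPM in untrained cord. Its log2 fold change of 0.16 ± 0.25 turned to -0.18 without trained replicate 3.

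Of the sensors Nlrp3 and Aim2, Nlrp3 was the lower in level, at 0.684 against 2.26 CPM per kb. Nlrp3, the sensor of ion loss and crystals, was at 2.25, 1.67 and 3.29 CPM in trained and at 3.55, 2.88 and 3.003 CPM in untrained cord (-0.40 ± 0.27, -0.20 without trained replicate 2 and -0.65 without trained replicate 3). Aim2, the sensor of DNA in the cytosol, was at 6.85, 6.11 and 8.38 CPM in trained and at 9.61, 9.25 and 7.35 CPM in untrained cord (-0.30 ± 0.17). The span of Aim2 overlaps Cadm3, a gene with 36704 reads against 856 for Aim2, and the use of strand in counting is not given, so its value is uncertain. Il18, the cytokine gene, did not share the split: it was at 14.3, 15.9 and 16.5 CPM in trained and at 16.2, 12.5 and 13.0 CPM in untrained cord (0.15 ± 0.13).

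Necroptosis runs from the kinase RIPK1 through RIPK3 to the membrane pore MLKL, and 0 of these 3 genes passed an unadjusted p of 0.05. Ripk1 was at 10.0, 6.92 and 9.62 CPM in trained and at 11.8, 8.95 and 10.5 CPM in untrained cord (log2 fold change -0.23 ± 0.17). Ripk3 was at 0.387, 0.803 and 0.993 CPM in trained and at 1.91, 0.901 and 0.447 CPM in untrained cord (-0.65 ± 0.53). Untrained replicate 1 decided that value: without it the log2 fold change of Ripk3 was 0.06 and the median of the 3 genes moved from -0.65 to -0.12.

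Mlkl was at 0.310, 0.247 and 1.68 CPM in trained and at 1.04, 0.721 and 1.73 CPM in untrained cord. Its log2 fold change of -0.70 ± 0.69 was -1.98 without trained replicate 3. Ripk3 and Mlkl had 96 and 97 reads in all 6 libraries together, and the 95% interval of the log2 difference in Mlkl was wide, from -2.27 to 0.87.

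**Figure D4:**
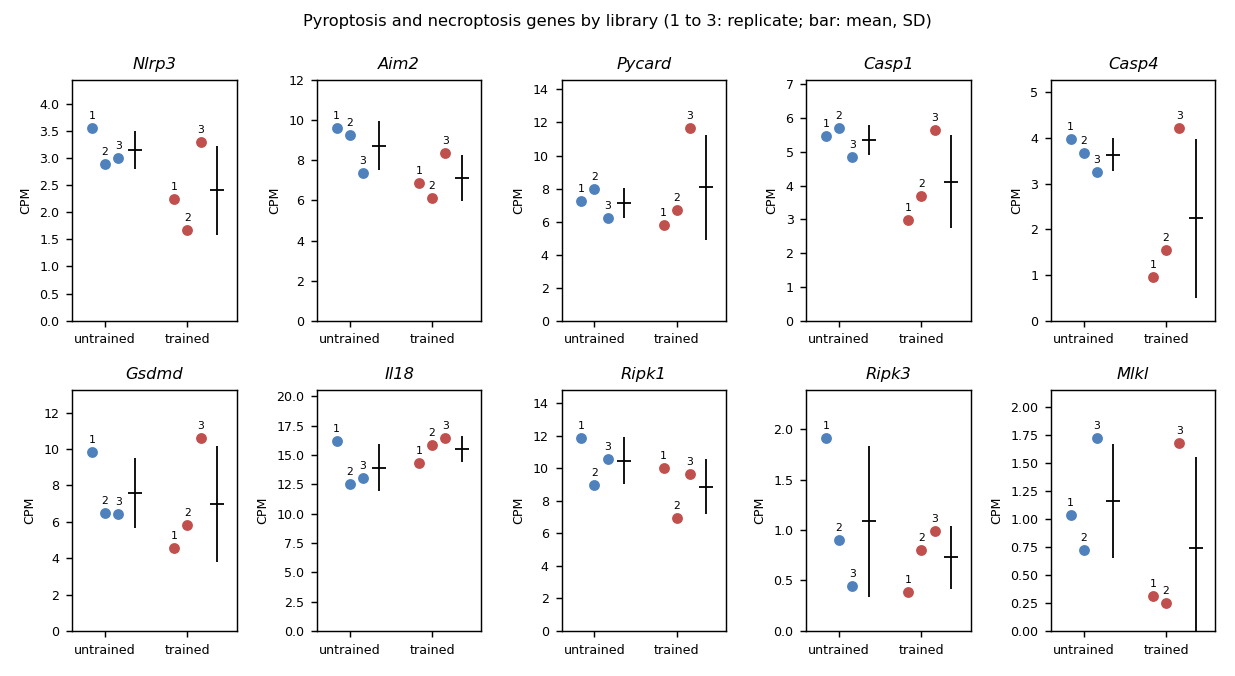
Level of the 7 pyroptosis and 3 necroptosis genes in each library, in CPM from 0, with the replicate number beside each point and a bar for the mean and SD of 3 libraries. Trained replicate 3 lies well above trained replicates 1 and 2 in Casp1, Casp4, Gsdmd, Pycard and Mlkl, and the groups overlap in all 10 genes.

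Summed levels of myeloid markers are given beside this split. The 6 microglia markers summed to 550, 580 and 684 CPM in trained replicates 1, 2 and 3 and to 765, 641 and 705 CPM in untrained replicates 1, 2 and 3. The 5 monocyte and macrophage markers summed to 228, 223 and 352 CPM in trained and to 482, 341 and 378 CPM in untrained cord. Nearly all of that sum was Lyz2, at 222, 208 and 336 CPM in trained replicates 1, 2 and 3. Some of the other markers were not low in trained replicate 2: Mrc1 was at 5.99 CPM there and 5.03 CPM in trained replicate 3, and Cd163 was at 2.78 CPM there, its highest value. With each marker weighted equally, the mean log2 CPM of this list relative to all libraries was -1.01, 0.08 and 0.24 in trained replicates 1, 2 and 3. In both sums trained replicate 3 was the highest trained library and untrained replicate 1 the highest of all, and 0 of the 11 markers passed the test over all genes. Each of the 11 had reads. Their part in the values of the pyroptosis and necroptosis genes was not tested.

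**Figure D5:**
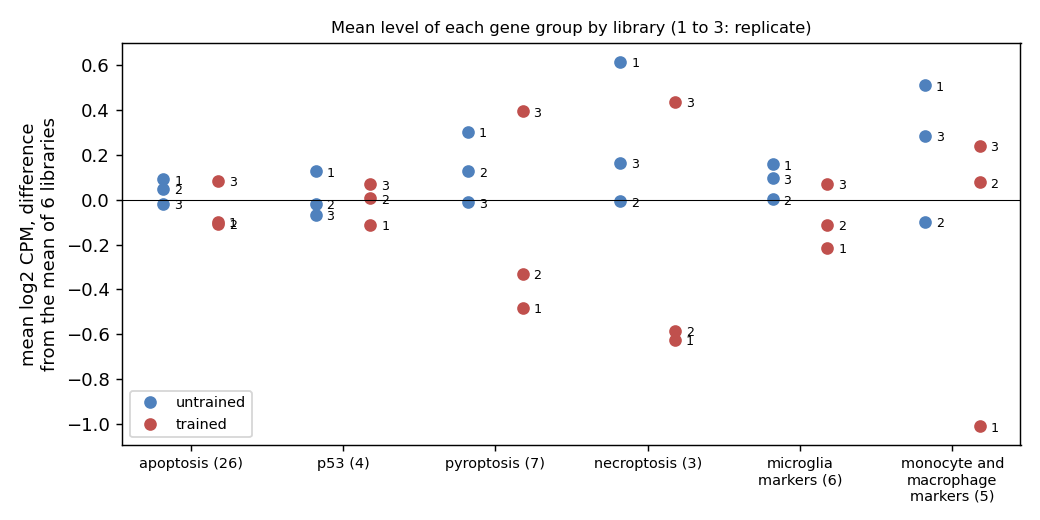
Mean log2 CPM of each member group and of 2 myeloid marker lists in each library, as the difference from the mean of all 6 libraries, with untrained libraries in blue, trained in red and the replicate number beside each point. In the apoptosis, pyroptosis and necroptosis groups the points of trained replicates 1 and 2 are below all the untrained points, and trained replicate 3 is among or above them.

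Of 72 further genes of these pathways, 67 could be tested and 1 passed over all genes in edgeR, against 0.0591% of all genes tested. It was Btg2, an antiproliferative p53 target that is also an early-response gene, at 13.7, 13.4 and 16.2 CPM in trained and at 40.3, 32.9 and 39.0 CPM in untrained cord (log2 fold change -1.38 ± 0.11, edgeR adjusted p = 0.000149). The further genes were listed with earlier results of these data known, so their shares are no independent comparison with all genes. The other 17 p53 targets did not pass. The next 2 by p were Plk2, a stress-induced polo-like kinase gene, at 25.5 ± 2.397 against 30.4 ± 1.73 CPM (adjusted p = 0.404 in edgeR) and Phlda3, an inhibitor of AKT, at 114 ± 5.56 against 101 ± 8.21 CPM (adjusted p = 0.445 in edgeR), in opposite directions.

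Of 23 further apoptosis genes tested, 0 passed and 4 (17.4%, against 10.0% of all genes tested) were under an unadjusted p of 0.05, 2 in each direction. Those of smallest p were Endog, a mitochondrial nuclease gene, at 19.6, 16.7 and 17.7 CPM in trained and 15.8, 12.1 and 13.9 CPM in untrained cord (edgeR adjusted p = 0.372) and Traf2, an adaptor of TNF receptors that carries the IAPs Birc2 and Birc3, at 16.9 ± 1.79 against 13.7 ± 1.07 CPM (edgeR adjusted p = 0.432). Both had groups that did not overlap. That held for 6 of the 23 genes (26.1%, against 16.8% of all genes tested), 3 in each direction. Endog shares its span with Spout1, a gene of 2331 reads. Of 12 further necroptosis genes 0 passed, and the smallest p belonged to Tnfaip3 (A20), a ubiquitin editor that restrains NF-kB and RIPK1, at 5.58, 5.62 and 7.57 CPM in trained and 8.41, 8.53 and 7.92 CPM in untrained cord (log2 fold change -0.41 ± 0.17, edgeR adjusted p = 0.450). Tab2, an adaptor of the TAK1 kinase, was at 80.4 ± 8.49 against 89.0 ± 2.64 CPM.

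Of 18 further pyroptosis genes 14 could be tested, 0 passed, and 12 of the 14 had a log2 fold change below 0. Of all genes tested 48.0% were above 0. Here too the trained libraries split. The mean log2 CPM of the 18 genes, relative to all libraries, was -0.455, -0.275 and 0.332 in trained replicates 1, 2 and 3. It was 0.265, 0.0644 and 0.0682 in untrained replicates 1, 2 and 3. Il1b, the cytokine gene that caspase-1 acts on, was near the floor with 10, 6 and 12 reads in trained and 21, 22 and 8 in untrained replicates 1, 2 and 3 (edgeR adjusted p = 0.502). Il1r1, its receptor gene, was at 5.11, 10.4 and 10.9 CPM in trained and 19.5, 13.0 and 12.5 CPM in untrained cord, with no overlap (log2 fold change -0.78 ± 0.33, edgeR adjusted p = 0.510). The groups did not overlap in 2 of the 14 genes (14.3%, against 16.8% of all genes tested). With no filter on low counts Il1r1 passed over all genes.

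Gene positions in the table match GENCODE M21 (GRCm38) for 37 of the 40 members. The genes with the smallest p are Cflar (ENSMUSG00000026031) on chromosome 1 from 58711508 to 58758884, Xiap (ENSMUSG00000025860) on chromosome X from 42059679 to 42109656, Bbc3 (ENSMUSG00000002083) on chromosome 7 from 16308393 to 16318205, Birc3 (ENSMUSG00000032000) on chromosome 9 from 7848699 to 7873186 and Mcl1 (ENSMUSG00000038612) on chromosome 3 from 95658788 to 95663176. No other gene of the table overlaps these 5. In 8 members, Bak1, Bid, Bad, Casp9, Diablo, Aim2, Il18 and Ripk1, the span overlaps a gene with over 100 reads, and reads of the pair may not be told apart.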

How the data were processed

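The authors deposited raw read counts per Ensembl gene, with symbols, positions and lengths in base pairs, for 6 libraries of total RNA (150 bp paired-end reads, per the labels' protocols). Bowtie 0.12.2, mm8 and mm9 stand in the submitters' processing notes, without a stated role. The sources used here do not give the counter, the annotation or the strand setting. Of the gene IDs found in GENCODE M21, 98.3% have its GRCm38 coordinates, so positions are read as GRCm38.

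The test was a robust quasi-likelihood fit with group as its only term (edgeR 4.0.16, R 4.3.3) on genes kept by filterByExpr, with TMM factors, Benjamini-Hochberg adjustment over all genes tested and a threshold of 0.05. The SE is the log2 fold change divided by the square root of F. CPM per kb divides CPM by the deposited length. This step was first tested on simulated data. The replicate numbers do not pair the libraries. As alternatives, each library was left out in turn, the threshold was set to 0.1, the low-count filter and the scaling (RLE, upper quartile) were changed, a replicate block was added, and DESeq2 1.42.0 and limma-voom (limma 3.58.1) were run.

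The members, lists, tests and naming rule (all 40 members, then further pathway genes past the test, plus the 2 of smallest p) were chosen with earlier results of these data known. Marker lists covered microglia, monocytes and macrophages, neutrophils, T and NK cells, astrocytes, oligodendrocytes, neurons, endothelial cells, Schwann cells, fibroblasts and red blood cells.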

Additional observations from a re-analysis of the deposited data

How the results depend on the processing

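In the 13 refits, 25 of 39 members kept the sign of their log2 fold change and 14 changed it in at least 1 fit, none of them while past the test. The number past the test over all genes was 0 in every fit except that with no filter on low counts (1, Cflar) and that without trained replicate 3 (3), so the range over the fits leaving out a library was 0 to 3. At a threshold of 0.1 it was 0 in the edgeR fit of all 6 libraries, but Cflar came under 0.1 in DESeq2 (adjusted p = 0.0998), and Tnfrsf1a (0.0750) and Mlkl (0.0991) did so in edgeR without trained replicate 3. The number under an unadjusted p of 0.05 was 2 to 12 when each library was left out and 4 to 7 otherwise. The necroptosis median ranged from -0.93 to -0.12 over the fits leaving out a library, and the p53 median, close to 0, changed sign with upper-quartile scaling (0.0096), without trained replicate 1 (0.0021) and without untrained replicate 1 (0.0027). Without TMM factors 5 members had groups that did not overlap. Among further pathway genes, in fits chosen after seeing the data, 2 passed with no filter (Btg2 and Il1r1) and 1 in each other fit.

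The libraries do not deviate together by number: the correlations of deviations for replicates 1, 2 and 3 were -0.18, -0.09 and -0.13. A fit with a replicate block left 0 members past the test and 4 under an unadjusted p of 0.05. With 3 libraries per group the median SE of a member's log2 fold change was 0.15, and it was 0.53 in the necroptosis genes, which limits what could be detected there.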

Other observations

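Zbp1, the nucleic acid sensor that can start necroptosis through RIPK3 and an interferon-induced gene, had the largest SE of the further necroptosis genes, with trained levels of 0.813, 2.53 and 9.62 CPM in replicates 1, 2 and 3 and untrained levels of 5.03, 3.18 and 5.88 CPM. It was chosen after its values were seen. Trained replicate 3 was the highest and trained replicate 1 the lowest of all libraries. The group means were 4.32 ± 4.67 and 4.70 ± 1.38 CPM, with a 95% interval of the log2 difference from -2.73 to 2.41. Its log2 fold change of -0.16 ± 0.96 did not pass (edgeR adjusted p = 0.9751).

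The T and NK cell markers, 4 of 5 with enough reads to test, summed to 2.401, 4.57 and 5.83 CPM in trained and to 6.94, 5.17 and 6.71 CPM in untrained replicates 1, 2 and 3. The 5 endothelial markers summed to 268, 318 and 285 CPM in trained and to 394, 327 and 320 CPM in untrained cord. The 5 fibroblast markers summed to 148 CPM in trained replicate 1 and to 299.6 to 537 CPM in the other 5 libraries, and the 5 red blood cell markers to 61.1, 145 and 143 CPM in trained and to 67.8, 65.0 and 36.6 CPM in untrained cord.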
